A study of Mus musculus with 2 samples.

Results

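Probes for transcripts from ultraconserved elements were taken from the 2 arrays as every non-control spot whose probe name begins with "uc.", which gave 373 probes out of 97836 non-control probes. Each carries a name of the form uc.mouse.N, with N from 1 to 483, and each was printed as 1 spot per array. No name carried a strand or probe suffix and no number occurred on more than 1 probe, so agreement between strands or between probes of an element could not be examined. One probe, uc.mouse.307, had a spot marked as an outlier and was left out, and each of the others had a value on both arrays. The files do not state the sequence, the strand or the genomic position of a probe.

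The arrays held total RNA from whole mammary gland of female mice. The control gland was of genotype miR-34a fl/fl, in which loxP sites flank the miR-34a gene. The knockout gland (miR-34a -/-) came from a cross of that floxed line with mice expressing a mammary-specific Cre recombinase, so floxed alleles underlie both groups. Cells of the gland that do not express Cre may keep miR-34a. The genotype labels do not say whether the control mice carried Cre. If they did not, carrying Cre cannot be told apart from loss of miR-34a. The labels name neither the promoter that drives Cre, nor the age of the mice, nor whether glands were pooled. With 1 array per genotype no test was possible, and the differences below describe these 2 arrays. A whole gland holds epithelium, fat, vessels and immune cells, and fewer cells of a type cannot be told apart from less RNA per cell.

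Ultraconserved elements are long stretches of the genome that are identical between human, mouse and rat. Many lie in or beside genes for transcription factors of development and for RNA-processing proteins, and many of those outside exons act as enhancers. Some are also copied into RNA, the transcribed ultraconserved regions. These transcripts differ between tissues and are altered in several cancers, and some have been described as partners or targets of microRNAs. In the human catalogue the elements are numbered along the chromosomes. Whether uc.mouse.N is the counterpart of the human element of the same number is not stated with the data and was not established.

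The gene named in the genotype labels makes the microRNA miR-34a, which is induced by p53 and represses target mRNAs through its seed. Its main mature strand is shown because it is the RNA whose gene the cross targets, with the seed (bases 2 to 8) in capitals. The sequence is RefSeq's, 22 bases at chr4:150068473-150068494 on the plus strand of GRCm38.p6.
mmu-miR-34a-5p: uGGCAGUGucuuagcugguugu
No probe named in the sources used here belongs to Mir34a, so its loss was not checked on the arrays. No search for this seed in the elements was possible without their sequences.

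Of these probes, 209 (56.2%) stood well above background in the control gland and 201 (54.0%) in the knockout gland. Measured on both arrays were 50.8%, and 151 (40.6%) were above background on neither. A further 20 were above it in the control gland alone and 12 in the knockout gland alone. Over all 97373 usable non-control probes the shares were 75.5% on the control array, 73.2% on the knockout array and 71.3% on both, with 2.52% above background in the control alone and 1.08% in the knockout alone. The shares of the ultraconserved probes on each array and on both lay below these, while 5.38% of them were seen in the control gland alone and 3.23% in the knockout gland alone. Curated RefSeq non-coding probes, which also have 1 spot each, were measured on both arrays in 62.8% of 436. Of that class 5.50% were above background in the control alone and 2.52% in the knockout alone. For Ensembl-named lncRNA probes the share was 54.6% of 940, and for NONCODE lncRNA probes 67.8% of 28691. Most Ensembl and NONCODE probes have more than 1 spot and counted as measured only if all were above background. The same holds for all non-control probes, of which only 20.4% had 1 spot. A probe counted as seen in 1 gland alone only if none of its spots on the other array was above background. That rule lowers the shares seen in 1 gland alone for probes with several spots, so those shares are not like for like with the elements. These shares are descriptions of 1 pair of arrays.

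The signals of the elements were low. The processed signal is the fluorescence value that the software gives for a spot after background subtraction. In the control gland it ran from 2.81 to 2310 with a median of 22.4. The knockout gland gave 2.61 to 1711 with a median of 16.7. Over all usable probes these medians were 86.6 and 63.03. The 151 probes above background on neither array had medians of 3.25 in the control and 3.08 in the knockout, and none of them exceeded 14.3 or 14.6. The lowest values do not exceed the error that the software gives for them, and are not measured amounts. For example, uc.mouse.86 had 2.84 in the control with an error of 2.85, and 2.75 in the knockout with an error of 2.76. For comparison between arrays, each log2 signal was expressed as its distance from the 75th percentile of its own array. On that scale 32 ultraconserved probes lay above 0 in the control, 37 in the knockout and 30 in both.

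**Figure D1:**
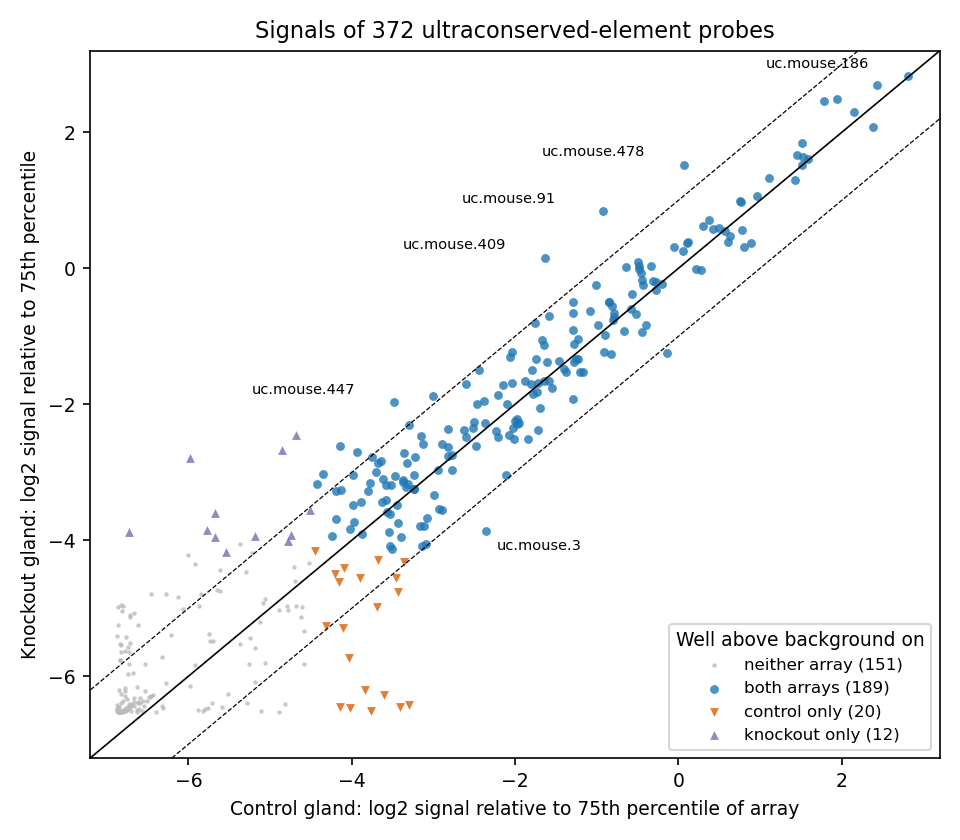
Log2 signal, as distance from the 75th percentile of each array, of the ultraconserved-element probes, control gland on the x axis and knockout gland on the y axis, 1 point per probe, with colour and shape giving the arrays on which the probe was well above background. The solid line marks equal levels and the dashed lines a 2-fold difference; of the probes measured on both arrays, 10 lie above the upper line and 2 below the lower one.

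The brightest elements were nearly the same in both glands: 11 probes were among the top 12 on each array. These are ranks of probe signals, which depend on each probe's sequence, and are not ranks of transcript amount. The brightest was uc.mouse.186, with a signal of 2310 ± 231 in the control gland and 1711 ± 171 in the knockout gland. The error here is the one that the scanner software gives for a spot, with n = 1 spot, and it does not cover animals. Among the 12 brightest it was a nearly constant share of the signal, and the combined error of each difference was 0.20. For bright probes it therefore acts much like a fixed limit on fold. After scaling, uc.mouse.186 stood at 2.81 in the control and 2.82 in the knockout, which are the same within that error (difference 0.02 ± 0.20).

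uc.mouse.12 followed at 1781 ± 178 and 1561 ± 156, a scaled difference of 0.26 ± 0.20. uc.mouse.331 had 1722 ± 172 in the control and 1023 ± 102 in the knockout, and its difference of -0.30 ± 0.20 was the lowest of the 12. uc.mouse.393 had 1469 ± 147 and 1184 ± 118, a difference of 0.14 ± 0.20. None of these reached 1.5-fold.

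The highest differences among the 12 belonged to uc.mouse.169 and uc.mouse.443. uc.mouse.169 had 1135 ± 114 in the control and 1327 ± 133 in the knockout, and was higher by 0.67 ± 0.20 after scaling. uc.mouse.443 had 1272 ± 127 and 1351 ± 135, and was higher by 0.54 ± 0.20. Both signals were also the only ones of the 12 with a larger unscaled value in the knockout. The others were uc.mouse.13, uc.mouse.263, uc.mouse.451, uc.mouse.175, uc.mouse.264 and uc.mouse.458, whose signals lay between 592 and 990.5, with differences from -0.13 to 0.33. In all, 10 of the 12 lay above 0 and 11 differed by less than 1.5-fold. Among them are the consecutive numbers 12 and 13, and 263 and 264.

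**Figure D2:**
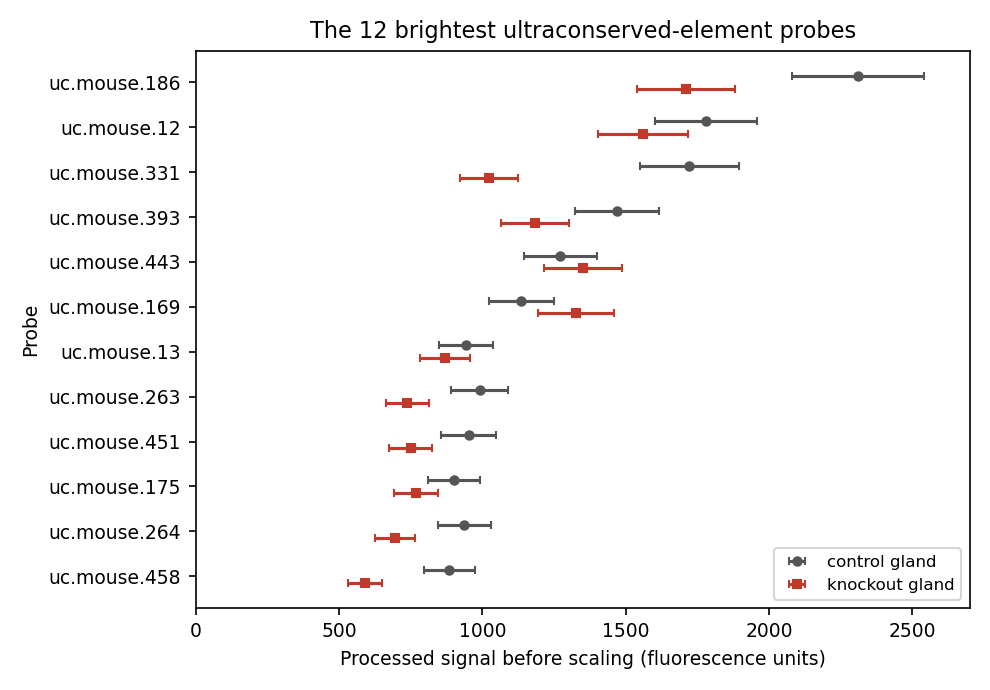
Processed signal in fluorescence units, before scaling between arrays, of the 12 ultraconserved-element probes with the highest mean level, for the control gland (circles) and the knockout gland (squares). Bars are the spot error given by the scanner software, from 1 spot per array; the knockout signal lies below the control signal for all but uc.mouse.443 and uc.mouse.169, before the arrays are brought to a common 75th percentile.

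The next question was which elements differed between the glands. Over the elements measured on both arrays the median difference, knockout minus control, was 0.17 on the log2 scale, with quartiles of -0.14 and 0.44, with 119 (62.96%) above 0 and 70 below. Over all 69405 probes measured on both arrays the median was 0.10 and 58.6% lay above 0, so the lean above 0 was shared with the array as a whole. The differences ran from -1.51 to 1.80, with an SD of 0.52 over probes, against 0.65 for all measured probes. The combined error of a difference had a median of 0.22 and reached 0.49. In 69 of these elements the difference was within that error, and in 54 it was more than 2 times the error, 40 of these higher and 14 lower in the knockout. For these counts the share over all probes was not computed, so the split is not read as particular to the elements.

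At a limit of 2-fold, 10 probes (5.29%) were higher and 2 (1.06%) lower in the knockout. The background was 4.45% higher and 4.54% lower over all measured probes. The share of higher elements was near the background, and the share of lower ones was below it. At 1.5-fold 33 were higher and 14 lower, which is 17.5% and 7.41%, against 14.9% and 10.9% of all probes. No element measured on both arrays reached 4-fold, against 0.386% of all probes higher and 1.02% lower by that size. The split between higher and lower changed with some scalings and hardly with others. With the median of detected probes it was 9 and 2 (background 4.44% and 4.55%), as with quantile scaling (background 4.03% and 4.70%). With a loess curve it was 9 and 4 (background 3.37% and 5.39%). Bringing the E1A spike-in controls level between the arrays moves every difference by -0.36, and the split was then 5 and 9 (background 1.81% and 9.67%).

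Among elements measured on both arrays the largest increase was that of uc.mouse.409. Its signal was 106 ± 11.1 in the control and 269.8 ± 27.1 in the knockout, a 3.48-fold difference after scaling (log2 1.80 ± 0.21). uc.mouse.91 had 175 ± 17.8 in the control and 432 ± 43.3 in the knockout, a 3.38-fold difference (1.76 ± 0.21). For both the error bars of the glands are far apart even before scaling.

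uc.mouse.478 was the brightest of the elements that passed the limit, with 344 ± 34.6 in the control and 695 ± 69.6 in the knockout, a 2.75-fold difference (1.46 ± 0.20). It was number 31 of the elements by signal in the control and number 12 in the knockout. uc.mouse.409, uc.mouse.91 and uc.mouse.478 were the elements that remained at least 2-fold higher with normexp background correction, at 1.24, 1.53 and 1.097, and also past the limit with the spike-ins set equal, at 1.44, 1.40 and 1.1002.

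The other 7 higher elements were dim in the control gland. uc.mouse.318 read 18.7 ± 3.74 in the control and 39.4 ± 4.84 in the knockout (2.87-fold, log2 1.52 ± 0.34), and uc.mouse.447 read 29.4 ± 4.15 and 61.8 ± 6.72 (2.87-fold, 1.52 ± 0.26). uc.mouse.191 (1.33 ± 0.35), uc.mouse.276 (1.25 ± 0.38), uc.mouse.383 (1.23 ± 0.34), uc.mouse.182 (1.13 ± 0.24) and uc.mouse.287 (2.001-fold) had control signals between 15.4 and 40.9. For these 5 the limit lies within the error of the difference. With normexp all 7 kept their direction at less than 2-fold, from 0.55 to 0.83. The offset of 50 exceeds all their control signals, so falling short of the limit there does not tell whether these differences hold. With the spike-ins set equal uc.mouse.318 and uc.mouse.447 stayed past the limit, at 1.16 each.

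The 2 lower elements were uc.mouse.3 and uc.mouse.335. uc.mouse.3 had 64.5 ± 7.12 in the control and 16.6 ± 3.21 in the knockout, a 2.84-fold difference (-1.51 ± 0.32). With normexp it was at -0.30, the widest change of any of the 12 with the setting. The offset weighs most on dim signals, such as that of uc.mouse.3 in the knockout, and the setting also used median spot signals. Which of these moved the value was not tested. uc.mouse.335 had 299 ± 30.1 in the control and 102 ± 10.6 in the knockout, a 2.14-fold difference (-1.10 ± 0.21), and with normexp it was at -0.87. The outlier-marked uc.mouse.307 read 97.0 in the control and 30.7 in the knockout, which would be 2.31-fold lower if the mark were ignored.

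Of the 12 elements past the limit, 6 exceeded it by more than the combined error: uc.mouse.409, uc.mouse.91, uc.mouse.318, uc.mouse.447 and uc.mouse.478 higher and uc.mouse.3 lower. A further 9 lay between 0.90 and the limit, 6 higher and 3 lower. Just outside were uc.mouse.24 at 0.98 ± 0.28 and uc.mouse.10 at -0.95 ± 0.49. uc.mouse.10 turned direction, to 0.43 with normexp and 0.61 with no background correction. Both settings start from median spot signals and not from processed signals, so the background treatment is not the only change.

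**Figure D3:**
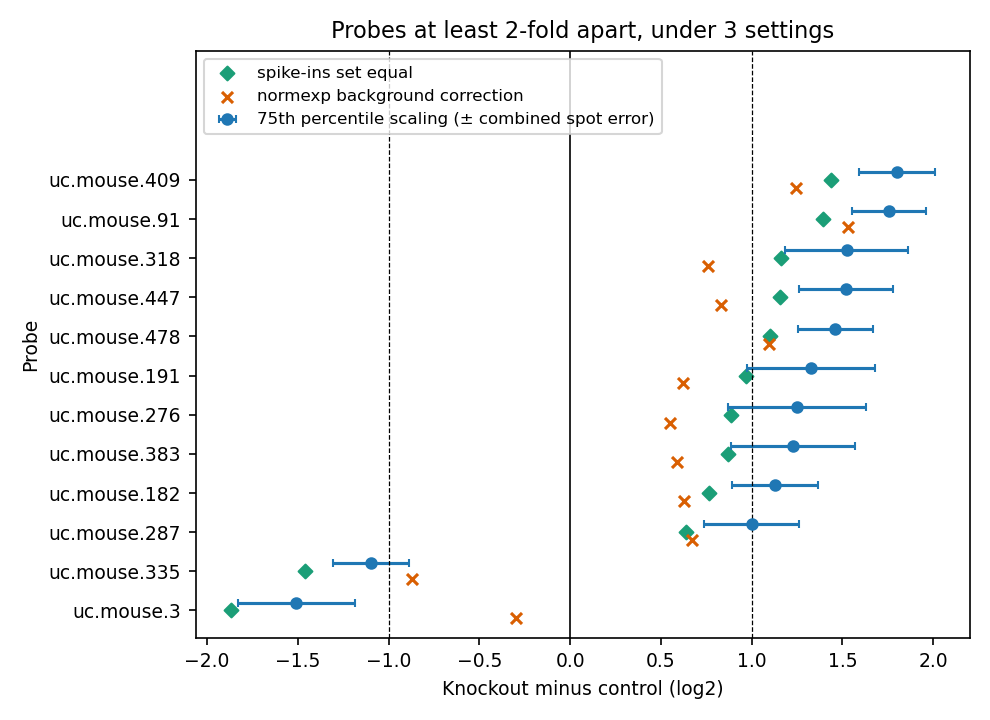
Knockout minus control on the log2 scale for the 12 ultraconserved-element probes at least 2-fold apart, with 75th percentile scaling (circles, bars give the combined spot error of 1 spot per array), with spike-ins set equal (diamonds) and with normexp background correction (crosses). Dashed lines mark 2-fold. All 12 keep their sign in the 3 settings. Normexp used median spot signals, and its offset shrinks the differences of dim probes. With it only uc.mouse.409, uc.mouse.91 and uc.mouse.478 stay past the limit.

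How far apart 2 spots of a probe can lie on 1 array was read from probes with 2 usable spots. Only probes measured on both arrays were taken. This spread leaves out whatever differs between arrays, so it does not give the noise of a knockout minus control difference. Between scaled levels of -5 and -3, where 53 of the elements and 5 of the 12 past the limit lie, 1.73% of 6178 pairs on the control array and 2.03% of 5719 pairs on the knockout array were at least 2-fold apart, with median spot SDs of 0.18 and 0.19. Between -3 and -1, which holds 70 elements and 3 past the limit, these shares were 0.263% and 0.594%. Between -1 and 1, which holds 52 elements and 4 past the limit, the shares were 0% and 0.0237%. The 14 elements above 1 had none past the limit, and their differences had an SD of 0.25 against 0.64 in the dimmest range.

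Among single-spot probes with mean levels between the quartiles of the elements (-3.16 and -0.59), 4.45% of 7389 other probes passed the 2-fold limit upwards and 5.25% downwards. The elements in that range, 95 in number, had 4 higher and 2 lower, which is 4.21% and 2.11%. Their median difference was 0.10, against 0.05.

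Elements above background in 1 gland only give a bound and not a fold change. A bound sets the bright level against the dim level, or, if that is higher, against the dimmest probe that the other array still called well above background. Of the 12 seen in the knockout only, 3 had a bound of at least 2-fold (background 34.6% of 1051 such probes). uc.mouse.140 read 12.8 in the control and 44.3 in the knockout and was at least 4.21-fold higher. uc.mouse.236 read 11.4 and 37.95 and was at least 3.61-fold higher, and uc.mouse.52 read 5.22 and 34.9 and was at least 3.32-fold higher. With normexp background correction the log2 differences of the 3 were 0.97, 0.93 and 0.90, each under 2-fold. With no background correction they were 1.37, 1.26 and 1.25, each over 2-fold. Both settings by themselves shrink the differences of dim probes.

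The fourth, uc.mouse.281, had a bound of 1.95-fold. Of the 20 seen in the control only, 17 had a bound and none of these reached 2-fold (background 27.5% of 2450 such probes). The largest belonged to uc.mouse.176, which read 33.5 in the control and 2.83 ± 2.85 in the knockout, at least 1.86-fold lower. Its log2 difference was -0.34 with normexp and -0.69 with no background correction, each smaller than the bound. After uc.mouse.176 came uc.mouse.57 (1.78-fold), uc.mouse.16 (1.71-fold) and uc.mouse.226 (1.70-fold). All control-only signals lay between 15.1 and 33.5, close to the lowest level called above background (14.3 in the control and 13.2 in the knockout).

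Detection varied with the element number. Of the 38 elements numbered 1 to 50, 26 (68.4%) were measured on both arrays, and of the 37 numbered 301 to 350, 25 (67.6%). Among the 41 numbered 201 to 250 it was 10 (24.4%), the lowest of the blocks of 50 numbers, and that block also held 4 elements seen only in the control gland and 3 only in the knockout gland. The blocks 51 to 100 and 101 to 150 had 39.0% and 38.5%. The median difference of the blocks ran from -0.08, for 201 to 250, to 0.25, for 351 to 400.

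The longest run of consecutive numbers measured on both arrays was uc.mouse.17 to uc.mouse.25, with 9 elements, 7 of them above 0 and a median difference of 0.27. In the run uc.mouse.287 to uc.mouse.291 all 5 elements lay above 0, from 0.08 up to uc.mouse.287, with a median of 0.94. In uc.mouse.308 to uc.mouse.312 it was 1 of 5, with a median of -0.08, and in uc.mouse.1 to uc.mouse.4 it was 1 of 4, where uc.mouse.1 was at 0.94 and uc.mouse.3 at -1.51. Over all 305 pairs of consecutive numbers, 57.0% shared the call of being measured on both arrays or not, where 50.01% would share it at the same overall rate. The levels of such pairs correlated at 0.18 in the control and 0.14 in the knockout, and the differences of the 84 pairs with both elements measured at 0.14, with 48 of 84 of the same sign. These correlations are weak and are no finding.

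**Figure D4:**
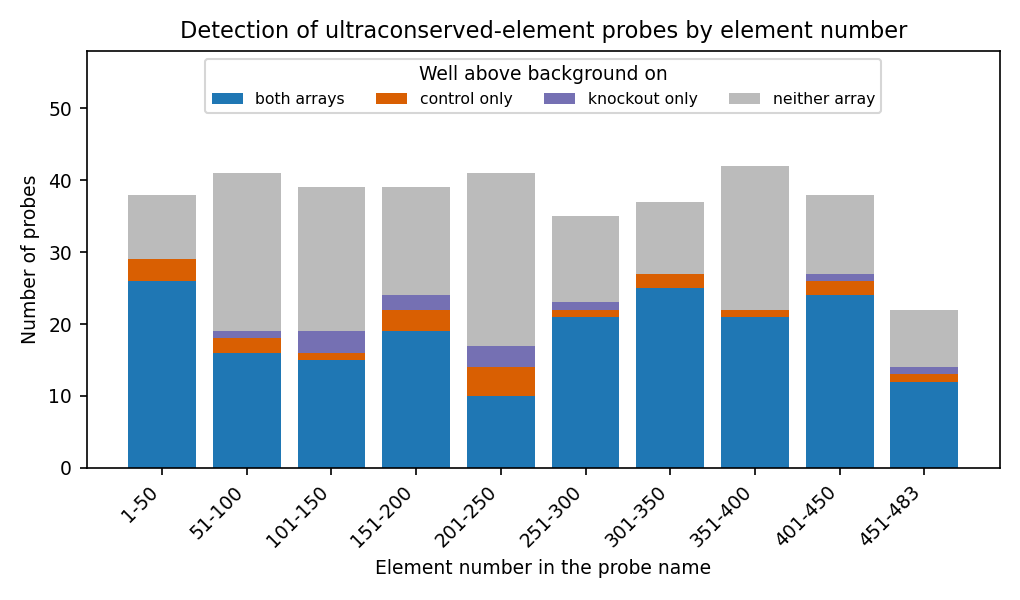
Number of ultraconserved-element probes in blocks of 50 element numbers (the last block ends at 483), stacked by the arrays on which they were well above background. The share measured on both arrays is highest for 1 to 50 (68.4%) and lowest for 201 to 250 (24.4%).

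Several human elements have been studied by number. Of 24 such numbers, 15 were on the array: 10 were measured on both arrays and 5, among them uc.mouse.8, were above background on neither. The files do not say that the mouse probe reads the same element. None of the 10 reached 2-fold in either direction, 4 lay above 0 and 6 below, and their median was -0.15, against 0.17 for all measured elements. Over all measured probes 4.45% were at least 2-fold higher and 4.54% lower, so few or no calls among 10 elements are no finding. With so few elements the medians are not read as a contrast. The human uc.63 and uc.38 have been studied in breast cancer. uc.mouse.63 read 136 ± 13.9 in the control and 93.3 ± 9.70 in the knockout, a difference of -0.10 ± 0.21, which is within the error. uc.mouse.38 read 38.01 ± 4.74 and 17.5 ± 4.01, a difference of -0.67 ± 0.38, the lowest of the 10.

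The human uc.73 has been studied in colorectal cancer and uc.160 as an element silenced by DNA methylation in tumours. uc.mouse.73 read 26.8 ± 4.19 in the control and 28.1 ± 3.99 in the knockout, a difference of 0.52 ± 0.30. uc.mouse.160 read 84.0 ± 8.88 and 49.3 ± 5.59, a difference of -0.32 ± 0.22. The other 6 ranged from -0.63 ± 0.22 to 0.92 ± 0.36. The brightest of the 10 read 499.98 ± 50.1 in the control, and none was among the 12 brightest elements.

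Genes that hold or lie beside ultraconserved elements could hardly be followed, because the mRNA probes carry no gene names in the sources used here. Of 57 such genes 2 had a probe that was named through the RefSeq gene table and measured on both arrays. Zeb2, a zinc-finger repressor, was at -0.45 in the control and -0.53 in the knockout, a difference of -0.08. Auts2, a nuclear regulator of neural development, was at -1.90 and -2.75, a difference of -0.85. Of 34 marker genes of mammary cell types, skin and muscle, 1 (Esr1) had a named probe and it was above background on neither array, so the labelled tissue could not be checked against its markers. A probe named through a clone or a non-coding accession need not read the main mRNA of its gene.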

How the data were processed

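Cy3-labelled RNA was hybridised to 1 one-colour Agilent array per genotype. The deposited intensity values are output of Agilent Feature Extraction, 11.5.1.1 per the file headers and 10.7 per the submitters' processing notes. The authors' deposited table holds log2 values, which for the ultraconserved probes are the processed signals on a log2 scale, lowered by 8.40 (control) and 7.95 (knockout), so its scale, centring and direction (knockout minus control) are known. Its column medians are -1.94 and -1.95.

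Control spots and spots with a feature outlier mark were left out, spots of 1 probe were combined as the mean of log2 processed signals, and each array was lowered by its 75th percentile over 97373 probes (8.36 and 7.92). A probe counted as measured if no usable spot failed the software's call of well above background. Errors are the software's signal errors, combined as the root of summed squares. Differences were called by size, at 2-fold. No spot of the elements was saturated, and the number of arrays limits the precision.

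Named were the 12 brightest elements, all at least 2-fold apart, the 4 largest bounds each way and some elements of a list of studied numbers; uc.mouse.307, the 2 elements just outside the limit, the runs of numbers and the blocks were added after values were seen. The planned count of agreement between strands had no probes. The members and lists were chosen with earlier results of these data known. Alternatives were other scalings, the authors' table, normexp with an offset of 50 or no correction on median spot signals, other filters and other limits. The main values use processed signals, so normexp and no correction also changed which spot signal was used. Values were computed in R 4.3.3 with limma 3.58.1 and in python 3.11.15 with statsmodels 0.14.6 and numpy 2.4.6. The calls were also run on simulated data with the same noise at every signal level, which does not cover the larger errors of dim elements.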

Additional observations from a re-analysis of the deposited data

How the results depend on the processing

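The counts of elements at least 2-fold higher and lower were 10 and 2. They stayed at 9 or 10 and 2 or 3 with the median of detected probes, the 75th percentile of detected probes, quantile scaling and outlier spots kept. The authors' deposited table, 1 spot per probe and any spot above background gave counts in the same range, but could hardly change them. Each element has 1 spot, and that table holds the same signals lowered by a constant. With a loess curve 4 were lower (5.39% of all measured probes were). With the spike-ins set equal 5 were higher and 9 lower (all probes 1.81% and 9.67%), and the median difference of the elements turned from 0.17 to -0.19, while that of all probes was -0.26; the setting itself moves every difference by the same amount. With normexp 3 were higher and 0 lower (all probes 1.89% and 2.23%), and with no background correction 5 and 0 (2.56% and 2.67%). An added offset, or background left in the signal, by itself shrinks the differences of dim probes. How much of the fall in these counts this makes up was not tested. With no filter on dim probes every usable element had a value, so there was no count of detection, and 49 were higher and 19 lower (all probes 6.94% and 6.24%). Where both levels had to exceed the median of measured probes, 60 elements were left, 2 higher and 0 lower (all probes 4.14% and 3.004%). At 1.5-fold the counts were 33 and 14 and at 4-fold 0 and 0. Requiring a difference past 2-fold by more than its combined error, an alternative chosen after seeing the data, left 5 and 1. The share over all probes was not computed for that condition. The median difference kept its sign in all other settings. No paired analysis was possible because each genotype has 1 array, and leaving out a replicate was not possible for the same reason. Agreement between strands gave no value to vary. Normexp and no background correction used median spot signals and not processed signals, so they changed the spot signal and the background treatment together. The bright uc.mouse.263 moved from 0.02 to -0.31 with each. Low signal limits the elements: 183 were below the detection call on at least 1 array.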
